A study of Mus musculus with 16 samples.

Results

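The genes that encode voltage-gated sodium channels, voltage-gated calcium channels and hyperpolarization-activated (HCN) channels were examined in the mouse hippocampus by bulk RNA sequencing. Members were taken by gene symbol, as the numbered Scn alpha and beta genes, the Cacna1, Cacna2d1 to Cacna2d4 and Cacnb1 to Cacnb4 genes, and the HCN genes. This gave 36 of the 55335 genes in the table. Described here are 28 of them, each with a mean of at least 10 raw counts over the 16 mice, and all 28 passed the filter on low counts and were tested. Below that mean were 5 further genes, namely Cacna1s, whose mean was 8.56 raw counts, and Scn4a, Scn10a, Scn11a and Cacna1f, whose means were between 0.125 and 1.12 raw counts.

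The study asked whether an inhibitor of stearoyl-CoA desaturase (SCD), the enzyme that makes monounsaturated fatty acids, changes the hippocampus of a mouse model of Alzheimer's disease. There were 4 groups of 4 female mice, all aged 10 months and all fitted with a pump that infused the lateral ventricle for 28 days. WT-D and WT-S mice were of the C57BL/6J x 129S1 background strain. 3xTg-D and 3xTg-S mice carried the human APPSwe and tau P301L transgenes together with the knock-in Psen1tm1Mpm allele, which codes for a mutant presenilin. The transgenes of this line are driven by a neuronal Thy1 element. D mice received vehicle (0.8% DMSO in artificial cerebrospinal fluid) and S mice received an SCD inhibitor at 80 µM in the same vehicle, so every group had surgery, a cannula and DMSO. The sources used here differ on the compound: the titles and treatment labels of the S mice name that of Cayman (CAY10566), and the protocol text of the labels names ab142089 of abcam.

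A sodium channel is built around 1 alpha subunit, which forms the pore and opens the action potential, joined by beta subunits that adjust its gating and its placement in the membrane. A calcium channel has a pore-forming alpha1 subunit with an extracellular alpha2-delta subunit and a cytoplasmic beta subunit that carry it to the surface, and it couples depolarization to transmitter release, to firing patterns and to gene expression. HCN channels open on hyperpolarization, carry an inward cation current and shape the integration of inputs along the dendrites of pyramidal cells. In the hippocampus most of these channels are chiefly neuronal.

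Each library held between 15413385 and 23590149 reads on genes. Of the uniquely mapped reads, the share outside annotated genes ranged from 7.82% in 3xTg-S mouse 2 to 15.1% in 3xTg-S mouse 4, and these were the lowest and highest libraries of the cohort. It lay at 10.5 to 12.52% for WT-D, 8.55 to 13.1% for WT-S and 8.79 to 11.3% for 3xTg-D. No 2 libraries of a group held the same data, since the smallest chi-square between libraries of a group was 3.80 per degree of freedom. Markers of hippocampal cells were present: the 6 markers of dentate granule cells summed to at least 478 CPM (counts scaled by library size) in every mouse, the 4 markers of CA1 pyramidal cells to at least 196 CPM and the 5 markers of CA3 and CA2 pyramidal cells to at least 155 CPM. The 4 cortex markers summed to between 105 and 127 CPM. No other tissue or threshold was set beside these sums, so they do not test the purity of the dissection. The 5 choroid plexus markers summed to between 26.7 and 723 CPM and stood highest in WT-D mouse 4 and WT-S mouse 1. Fewer cells of a type and less RNA per cell cannot be told apart in bulk tissue.

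Levels between genes were compared per length, as CPM divided by the length of all annotated exons in kb. Among the 28 genes the highest levels were those of beta subunits of the sodium channel, with Scn2b at 60.7 CPM per kb and Scn3b at 56.1 CPM per kb as means of 16 mice, and their ranges over mice (41.2 to 77.0 and 49.3 to 67.2 CPM per kb) overlapped. Scn4b was far lower at 3.78 CPM per kb. Over all tested genes the median level was 3.94 CPM per kb, and 19 of the 28 channel genes lay above it.

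Among the sodium alpha subunits the order was Scn2a, Scn8a, Scn1a and Scn3a, at 35.0, 21.8, 13.2 and 6.34 CPM per kb. Scn2a (Nav1.2) and Scn8a (Nav1.6) code for the main channels of the axon initial segment of excitatory neurons, Scn1a (Nav1.1) for the channel best known from inhibitory interneurons, and Scn3a (Nav1.3) for a channel most prominent before birth. Of the level summed over the 6 sodium alpha genes described, Scn2a held 44.7% ± 0.80 in WT-D, 45.9% ± 2.02 in WT-S, 45.5% ± 1.07 in 3xTg-D and 44.9% ± 1.45 in 3xTg-S (SD, n = 4). The groups overlapped in this share, which lay between 42.9 and 47.3% in single mice. The other two were rare: Scn7a, a sodium-sensing channel of glia and other non-neuronal cells, had 0.768 CPM per kb, and Scn9a, best known from sensory neurons, had 0.316 CPM per kb.

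Cacna1e (R-type, Cav2.3) had the highest level of the calcium alpha1 genes at 14.5 CPM per kb. The presynaptic channels Cacna1b (N-type, Cav2.2) and Cacna1a (P/Q-type, Cav2.1) had 9.66 and 8.34 CPM per kb, with ranges of 6.34 to 12.98 and 5.5995 to 11.7 CPM per kb that overlapped almost wholly. The T-type genes Cacna1h, Cacna1i and Cacna1g had 7.28, 4.66 and 3.24 CPM per kb, and the L-type genes Cacna1c and Cacna1d had 4.15 and 3.86 CPM per kb. Of the accessory subunits, Cacna2d1 (25.2 CPM per kb) exceeded Cacna2d3 (14.2), Cacna2d2 (2.57) and Cacna2d4 (0.121), and none of these ranges overlapped. Of the beta subunits, Cacnb3 (32.2 CPM per kb) and Cacnb4 (26.8) overlapped in their ranges, as did Cacnb4 and Cacnb1 (20.5), and Cacnb2 (6.27) lay below all 3. Hcn2 (21.02 CPM per kb) was far above Hcn3 (1.68) and Hcn4 (0.249), and the ranges of these 3 genes over mice did not overlap. The strand setting of the authors' counting was not given in the sources used here, and 9 of the 28 genes share exon with a gene on the opposite strand, so reads of the pair may not be told apart. The largest shared parts with a partner above 10 mean raw counts were in Cacnb4, with 15.99% of its exon, and in Cacna1d, with 4.67%. For the rare Scn9a the shared part was 1.41%.

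**Figure D1:**
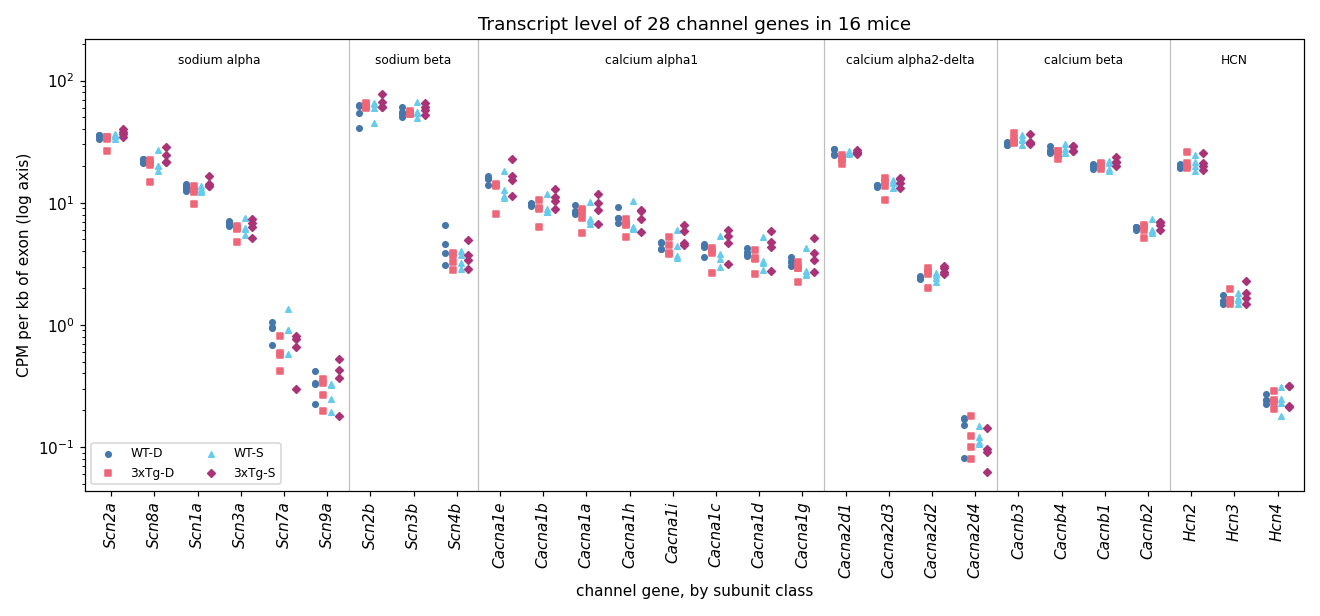
Level of each of the 28 channel genes in each of the 16 mice, in CPM per kb of exon on a log axis, with genes ordered by subunit class and level and symbols coloured by group. The genes span from Scn2b, with a mean of 60.7, to Cacna2d4, with a mean of 0.121, and the 4 groups of 1 gene lie close together compared with the distance between genes.

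The comparison of WT-D with 3xTg-D asked whether genotype altered these genes under vehicle. None of the 28 genes was called, beside 4.91% of all tested genes, called meaning that edgeR's quasi-likelihood test gave an unadjusted p-value of 0.01 or less. The p-values weigh the difference between groups against the spread between the mice within a group. With the unadjusted threshold raised to 0.05, edgeR gave 4 genes, all lower in 3xTg-D (Scn7a, Cacna2d1, Scn3a and Cacna1h), beside 12.6% of all tested genes in either direction and 6.04% lower. DESeq2 called 2 of them at the threshold of 0.01 (Scn7a and Cacna2d1), beside 5.28% of all tested genes. By subunit class, all 6 sodium alpha and all 8 calcium alpha1 genes had a log2 fold change below 0, with medians of -0.16 and -0.20, and the 4 alpha2-delta genes had a median of -0.10 with 3 of them below 0. The sodium beta, calcium beta and HCN genes had medians of -0.016, -0.022 and 0.054. The median over the 28 genes was -0.15 and over all tested genes 0.00. In all, 22 of the 28 lay below 0, while 50% of all tested genes lay above it. Without 3xTg-D mouse 2, the median of the sodium alpha genes was -0.052 and that of the calcium alpha1 genes -0.073. With the share of reads outside genes as a covariate these medians were -0.076 and -0.044, and 1 gene of each class lay above 0. Leaving out single mice gave at most 1 call, which was Scn4b without WT-D mouse 1, Scn7a without WT-D mouse 4 or 3xTg-D mouse 4, and Cacna2d1 without 3xTg-D mouse 3, each lower in 3xTg-D, beside 3.95 to 5.55% of all tested genes in the 8 fits.

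Scn7a had the largest difference of that comparison among the 28 genes. It stood at 7.73, 6.87, 7.01 and 5.06 CPM in WT-D mice 1 to 4 and at 4.12, 3.06, 4.35 and 5.89 CPM in 3xTg-D mice 1 to 4. 3xTg-D mouse 4 lay above WT-D mouse 4, so the groups overlapped in that pair alone. The log2 difference was -0.62 (SE 0.20, n = 4), with adjusted p = 0.210 by edgeR. Cacna2d1, an alpha2-delta subunit that binds gabapentin, stood at 345, 342, 306 and 308 CPM in WT-D mice 1 to 4 and at 284, 257, 306 and 289 CPM in 3xTg-D mice 1 to 4, and the groups overlapped by 3xTg-D mouse 3 alone. Its log2 difference was -0.19 (SE 0.07), with adjusted p = 0.252 by edgeR. Scn3a was the 1 gene of the 28 whose groups did not overlap, beside 8.17% of all tested genes. It had 79.7 to 88.0 CPM in WT-D and 59.7 to 79.7 CPM in 3xTg-D, a gap smaller than the spread within either group.

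The comparison of 3xTg-D with 3xTg-S asked what the inhibitor altered in the model mice, and it shares the 3xTg-D mice with the comparison above. None of the 28 genes was called by edgeR or by DESeq2, beside 0.904% of all tested genes by edgeR and 1.01% by DESeq2. With the threshold raised to 0.05 there were 5 genes by edgeR, beside 6.33% of all tested genes, namely Scn2a, Scn1a, Cacna1g, Cacna1i and Cacna2d1, and all 5 had a higher mean in 3xTg-S. That count depended on single mice. It was 1, 0, 4 and 7 without 3xTg-D mice 1 to 4 in turn, and 6, 14, 2 and 0 without 3xTg-S mice 1 to 4. The share of all tested genes also moved between these fits. At the threshold of 0.01 it ran from 0.413% without 3xTg-S mouse 4 to 4.87% without 3xTg-S mouse 2, and at 0.05 it was not counted per fit. In all, 25 of the 28 genes had a log2 fold change above 0, with a median of 0.15 against 0.0069 for all tested genes, of which 51.9% lay above 0. The 8 calcium alpha1 genes were all above 0, between 0.23 and 0.41, with a median of 0.35. That median was 0.23 without 3xTg-D mouse 2 and 0.20 without 3xTg-S mouse 4. Without 3xTg-S mouse 2, 3 genes were called, all higher in 3xTg-S (Cacna1c, Cacna1d and Cacna1g), beside 4.87% of all tested genes and 3.45% higher in 3xTg-S. With the replicate number as a block, an alternative fit described below, 11 genes were called, all higher in 3xTg-S, beside 6.88% of all tested genes.

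Scn2a stood at 425, 335, 440.3 and 435 CPM in 3xTg-D mice 1 to 4 and at 468, 443, 479 and 515 CPM in 3xTg-S mice 1 to 4. The lowest 3xTg-S mouse was thus just above the highest 3xTg-D mouse, and 3xTg-D mouse 2 was low by far. The log2 difference was 0.22 (SE 0.09, n = 4), with adjusted p = 0.722 by edgeR. Groups also did not overlap in Scn1a, Cacna2d1 and Cacnb4, which makes 4 of 28 genes, beside 3.16% of all tested genes. Scn1a had 108 to 152 CPM in 3xTg-D and 153 to 186 CPM in 3xTg-S, and Cacna2d1 had 257 to 306 CPM and 313 to 337 CPM.

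**Figure D2:**
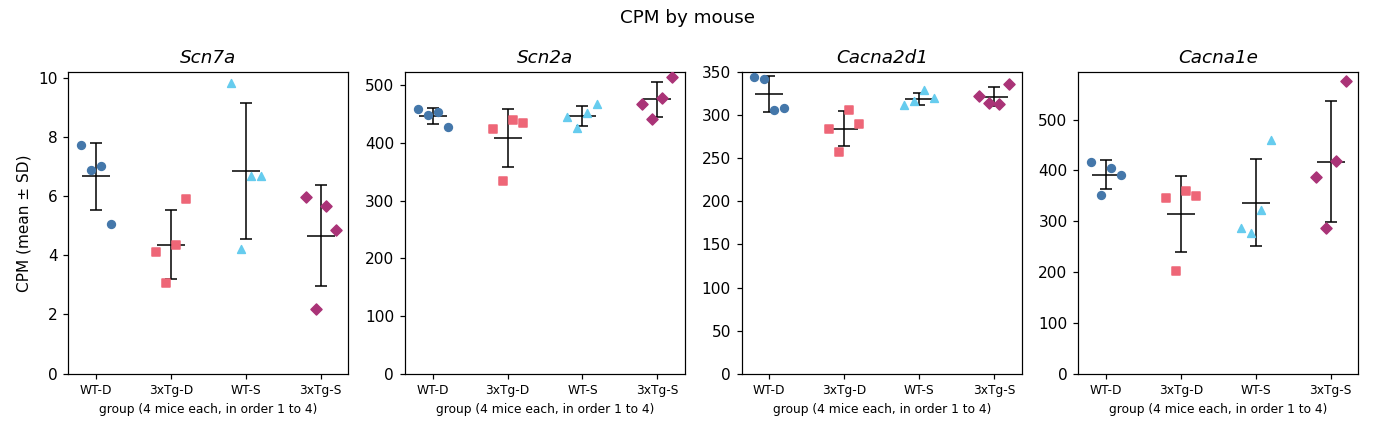
CPM of Scn7a, Scn2a, Cacna2d1 and Cacna1e in each mouse, from an axis that starts at 0, with the mean and SD of each group as bars. For Scn2a, Cacna2d1 and Cacna1e, 3xTg-D mouse 2 is the lowest mouse of the cohort, and for Scn7a the lowest is 3xTg-S mouse 2 at 2.19 CPM.

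**Figure D3:**
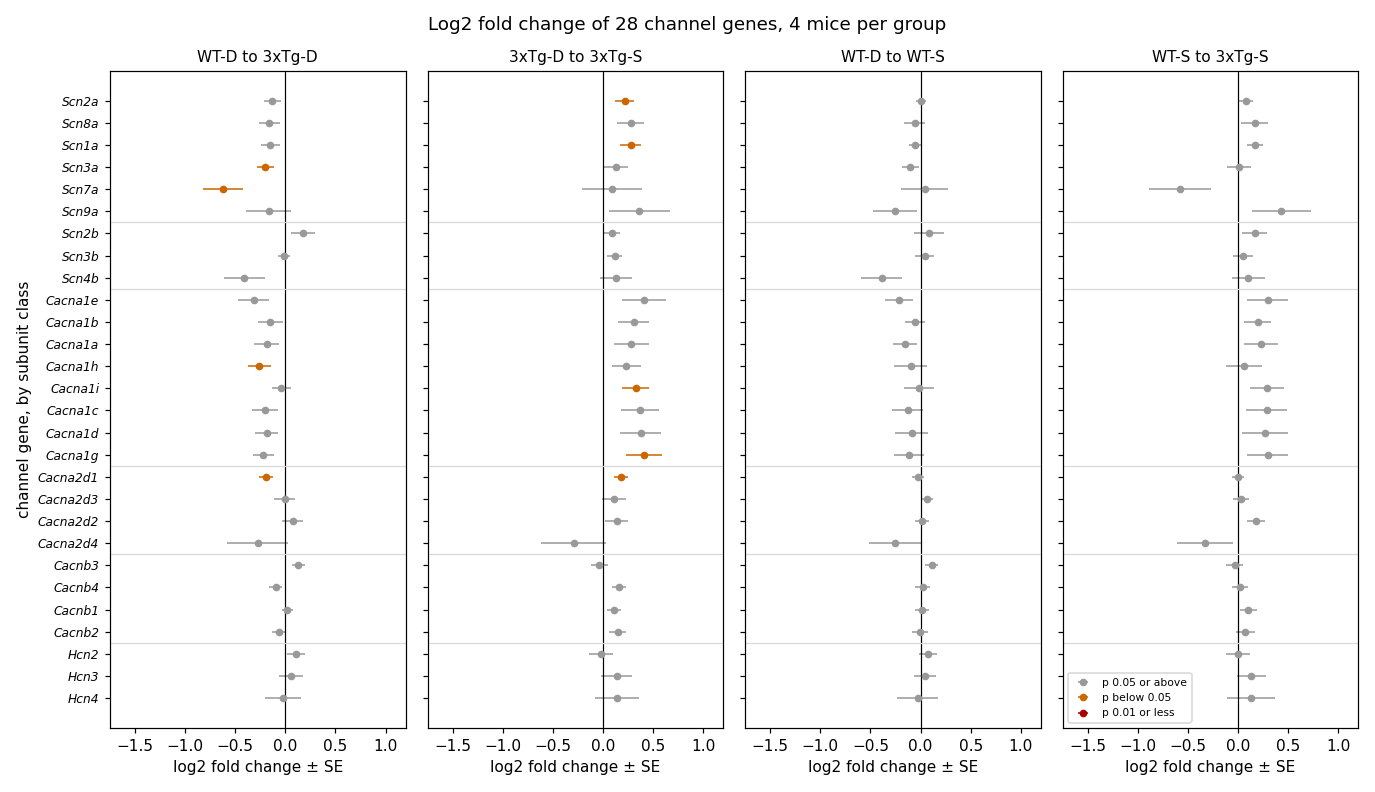
Log2 fold change of each of the 28 channel genes with its standard error in 4 comparisons, second group over first, coloured by the unadjusted p of edgeR's test. The 8 calcium alpha1 genes lie below 0 from WT-D to 3xTg-D and above 0 from 3xTg-D to 3xTg-S, the 2 comparisons share the 3xTg-D mice, and no gene in these panels reaches 0.01.

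The comparison of WT-D with WT-S asked what the inhibitor altered without the transgenes. None of the 28 genes was called by edgeR, beside 0.188% of all tested genes, none was called by DESeq2, beside 0.261%, and none passed a threshold of 0.05 by either tool, beside 2.25% by edgeR. The median log2 fold change was -0.026. The 8 calcium alpha1 genes were all below 0, with a median of -0.11, but with the share of reads outside genes as a covariate the median was -0.010 and 3 of the 8 lay above 0. WT-S mouse 4 stood apart, since each of its 8 calcium alpha1 genes lay above the WT-S mean, by a median of 0.49 on the log2 scale. Without that mouse, 8 genes were called, all lower in WT-S: Scn8a and each calcium alpha1 gene other than Cacna1i. In that fit 3.13% of all tested genes were called and 2.36% were lower in WT-S. The median of the calcium alpha1 genes was then -0.31, and it was -0.064, -0.033 and -0.041 without WT-S mice 1, 2 and 3 in turn. Scn2a had a log2 difference of 0.0024 (SE 0.052) and Cacna2d1 one of -0.026 (SE 0.059).

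Between WT-S and 3xTg-S, which differ by genotype under the inhibitor, none of the 28 genes was called by edgeR, beside 4.26% of all tested genes, or by DESeq2, beside 4.58%. None passed a threshold of 0.05 by either tool, as 10.7% of all tested genes did by edgeR. Scn7a again had the largest difference of the 28 genes, with 9.81, 4.20, 6.69 and 6.67 CPM in WT-S mice 1 to 4 and 5.95, 2.19, 5.65 and 4.86 CPM in 3xTg-S mice 1 to 4. The 3xTg-S mice 1, 3 and 4 lay within the WT-S range. The log2 difference was -0.58 (SE 0.31, n = 4), with adjusted p = 0.569 by edgeR, and Scn7a was called with the share of reads outside genes as a covariate, at -0.84 (adjusted p = 0.139 by edgeR). Scn1a was the 1 gene of the 28 whose groups did not overlap, beside 6.75% of all tested genes, with 138 to 152 CPM in WT-S and 153 to 186 CPM in 3xTg-S. The 8 calcium alpha1 genes were all above 0 with a median of 0.28, and with that covariate the median was 0.082 and 7 of the 8 lay above 0. Without 3xTg-S mouse 4, that median was 0.10, and without WT-S mouse 4 it was 0.47, when Cacna1i was the 1 gene called (higher in 3xTg-S), beside 5.75% of all tested genes. Without 3xTg-S mouse 2 the 1 gene called was Scn9a, higher in 3xTg-S, beside 6.03%.

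Between WT-D and 3xTg-S, which differ in both genotype and treatment, none of the 28 genes was called by edgeR, beside 5.69% of all tested genes, or by DESeq2, beside 6.26%. Cacna1i, a T-type channel, and Cacna2d2, an alpha2-delta subunit, passed a threshold of 0.05 by edgeR, as did 13.1% of all tested genes, and both had a higher mean in 3xTg-S. Cacna2d2 stood at 19.3, 19.8, 18.9 and 19.3 CPM in WT-D mice 1 to 4 and at 21.5, 20.8, 23.1 and 24.03 CPM in 3xTg-S mice 1 to 4. It was the 1 gene of the 28 whose groups did not overlap, beside 9.55% of all tested genes. Its log2 difference was 0.19 (SE 0.07, n = 4), with adjusted p = 0.233 by edgeR, and that of Cacna1i was 0.27 (SE 0.11), with adjusted p = 0.3495 by edgeR. Leaving out 3xTg-S mouse 2 raised the count of called genes from 0 to 3 (Cacna1c, Cacna1d and Cacna2d2, all higher in 3xTg-S), beside 9.38% of all tested genes.

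An interaction term over all 16 mice tested whether the inhibitor acted differently in the 2 genotypes. None of the 28 genes was called by edgeR, beside 0.595% of all tested genes, or by DESeq2, beside 0.692%. Scn1a, Cacna2d1 and Cacna1e passed a threshold of 0.05 by edgeR, beside 4.98% of all tested genes. For Cacna1e the interaction was 0.62 on the log2 scale (SE 0.29), with adjusted p = 0.788 by edgeR. The 8 calcium alpha1 genes all had an interaction above 0, with a median of 0.45 against 0.0095 for all tested genes, and the median was 0.14 with the share of reads outside genes as a covariate and 0.29 without 3xTg-S mouse 4. Without WT-S mouse 4, Cacna1e and Cacna1g were called, beside 2.31% of all tested genes, and without 3xTg-D mouse 4, Scn1a was called, beside 1.34%.

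Within the groups, single mice were high or low in all of the calcium alpha1 genes. Cacna1e stood at 417, 352, 405 and 392 CPM in WT-D mice 1 to 4 and at 287, 277, 321 and 461 CPM in WT-S mice 1 to 4. It stood at 346, 203, 360.1 and 349.7 CPM in 3xTg-D mice 1 to 4 and at 386, 287, 419 and 575 CPM in 3xTg-S mice 1 to 4. The highest mouse had 2.83 times the level of the lowest. 3xTg-D mouse 2 and 3xTg-S mouse 2 were low in all 8 calcium alpha1 genes, by medians of -0.40 and -0.43 from their group means in log2 CPM, and WT-S mouse 4 and 3xTg-S mouse 4 were high in all 8, by medians of 0.49 and 0.36. By smaller medians, WT-S mice 1 and 2 were also low in all 8 (-0.17 and -0.21). Likewise 3xTg-D mice 3 and 4 (0.063 and 0.24) and 3xTg-S mouse 3 (0.13) were high in all 8. Beside Cacna1e, Cacna2d1 was steady, with a highest mouse at 1.34 times the lowest.

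Those with the largest of these medians also had low or high shares of reads outside annotated genes. The share was 8.79% and 7.82% in 3xTg-D mouse 2 and 3xTg-S mouse 2, and 13.1% and 15.1% in WT-S mouse 4 and 3xTg-S mouse 4. Over the 16 mice, log2 CPM rose with this share, at an adjusted p of 0.05 or less over all 16475 tested genes, in 14 of the 28 channel genes, beside 17.7% of all tested genes (permutation test, 100000 permutations). These were all 8 calcium alpha1 genes, the sodium alpha genes Scn2a, Scn3a, Scn8a and Scn9a, Cacnb2 and Hcn3. Cacnb3 fell with the share, which makes 1 of 28 beside 13.6% of all tested genes. The share was not randomized between mice, and the part it plays in any difference between groups was not tested beyond the covariate fits given here. It also went with the replicate number. Mouse 2 had the lowest share of every group, and mouse 4 the highest of WT-D, WT-S and 3xTg-S, while in 3xTg-D mouse 1 was highest (11.3%). The share and the replicate number can therefore not be fully told apart.

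For Cacna1d, an L-type channel, the Pearson r was 0.94 and the Spearman rho 0.95, each with a permutation p of 1e-05, the smallest that 100000 permutations can give, and adjusted p-values of 0.000259 and 0.000297. With the 2 mice of most extreme share left out r was 0.90, and it was 0.92 over the 8 WT mice and 0.94 over the 8 3xTg mice. For Cacnb3, r was -0.67 with a permutation p of 0.00373 and an adjusted p of 0.0170, and rho was -0.56 with a permutation p of 0.0264 and an adjusted p of 0.0783. Leaving out the 2 farthest mice gave an r of -0.61, and r was -0.56 over the WT mice and -0.80 over the 3xTg mice. For Cacna2d1, r was 0.30 with a permutation p of 0.266 and an adjusted p of 0.415, and it took opposite signs in the WT mice (-0.31) and the 3xTg mice (0.58).

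The 14 genes that rose with the share had longer annotated exons, with a median of 12540 bases in all (4154 to 25228), than the 13 with neither relation, at 7338 bases (3195 to 12416), given as a description with no test. Cacnb3, which fell with it, had 4010 bases. With the share as a covariate, the median log2 fold change of the calcium alpha1 genes from 3xTg-D to 3xTg-S was 0.13 in place of 0.35, with all 8 still above 0. That of the sodium alpha genes was 0.072 in place of 0.25, with 3 of the 6 above 0 in place of all 6.

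**Figure D4:**
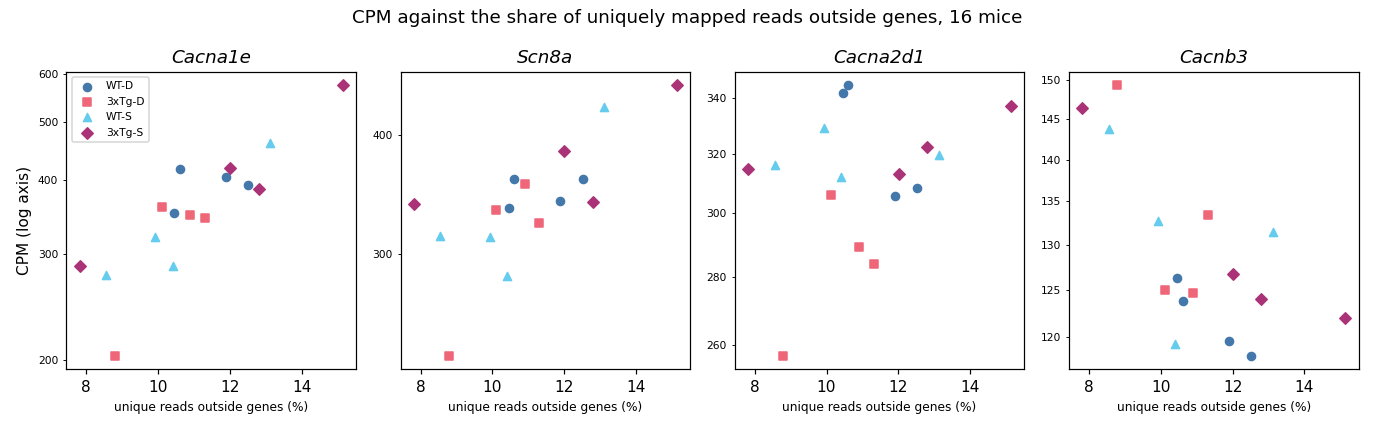
CPM of Cacna1e, Scn8a, Cacna2d1 and Cacnb3 on a log axis against the share of uniquely mapped reads outside annotated genes, 1 symbol per mouse coloured by group. Cacna1e, with an r of 0.86 in log2 CPM, and Scn8a, with an r of 0.72, rise with the share, Cacnb3 falls, with an r of -0.67, and Cacna2d1 has an r of 0.30.

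The 250 bases before the starts of the channel genes were read from the RefSeq promoter table (GRCm38.p6), which held 21 of the 28 described genes and 5 of the 8 calcium alpha1 genes. Whether these bases bear on the levels of the genes, or on the calcium alpha1 genes being high or low together, was not tested. The windows of Cacna1b (chr2:24763153-24763402, minus strand) and Cacna1i (chr15:80286988-80287237, plus strand) are shown, since these genes have 1 start each in the table and no annotated exon in the window. Capitals mark the GC box GGGCGG, read on both strands.
Cacna1b: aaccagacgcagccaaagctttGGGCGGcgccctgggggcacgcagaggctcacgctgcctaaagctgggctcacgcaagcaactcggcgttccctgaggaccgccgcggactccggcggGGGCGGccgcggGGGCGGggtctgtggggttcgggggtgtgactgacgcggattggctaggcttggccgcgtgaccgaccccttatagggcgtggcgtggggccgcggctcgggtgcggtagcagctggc
Cacna1i: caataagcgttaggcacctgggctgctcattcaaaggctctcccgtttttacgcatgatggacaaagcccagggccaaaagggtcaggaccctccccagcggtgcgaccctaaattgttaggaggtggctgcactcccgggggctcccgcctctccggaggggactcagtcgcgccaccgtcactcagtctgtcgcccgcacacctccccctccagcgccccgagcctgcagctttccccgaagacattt
The Cacna1b window holds 3 GC boxes and 72% G or C, and the Cacna1i window holds no GC box and 62.4% G or C. The 2 genes had r of 0.76 and 0.69 with the share of reads outside genes.

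In these windows the GC box occurred in 13 of the 21 described channel genes with an entry, and in 13 of their 31 windows, beside 32.7% of all 32851 windows in the table. Of the 5 calcium alpha1 genes with an entry, 3 had it. The TATA box TATAAA occurred in 2 of the 31 windows, beside 12.4% of all windows. The cAMP response element TGACGTCA occurred in none, beside 1.55% of all windows. The left part of the RE1 element, TTCAGCACC, searched on both strands as were the others, also occurred in none, beside 0.301%. The windows of the described genes had a median of 62.4% G or C, against 52.4% over the table.

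Proteins that bind or regulate these channels, and the separate NALCN sodium leak channel complex, were the partners examined. They made 4 lists with 41 genes, of which 37 were tested. Between WT-D and 3xTg-D, 1 was called higher and 1 lower, a share of the list near the 4.91% of all tested genes called. Cacng6, a gamma subunit related to that of the muscle calcium channel, stood at 2.93 ± 0.60 CPM in 3xTg-D against 1.15 ± 0.40 CPM in WT-D (SD, n = 4), a log2 difference of 1.35 (SE 0.26) with adjusted p = 0.0299 by edgeR. It was also called higher in 3xTg-S, at 2.38 ± 0.61 CPM, than in WT-S, at 1.06 ± 0.29 CPM, with adjusted p = 0.0660 by edgeR, and than in WT-D, with adjusted p = 0.121 by edgeR. Cabp1, a calcium-binding regulator of calcium channels, was lower in 3xTg-D, at 36.3 ± 3.32 CPM, than in WT-D, at 43.2 ± 1.78 CPM, a log2 difference of -0.25 (SE 0.07) with adjusted p = 0.123 by edgeR. The Cabp1 call held in 3 of the 8 fits that left out a mouse, and that of Cacng6 between WT-D and 3xTg-S in 6 of 8. None of the 37 was called with the inhibitor, be it between 3xTg-D and 3xTg-S or between WT-D and WT-S, where 3 and 1 passed a threshold of 0.05 by edgeR, beside 6.33% and 2.25% of all tested genes. No sodium channel partner (such as the axonal anchor Ank3 and the Fgf11 to Fgf14 factors), HCN channel partner or gene of the NALCN sodium leak complex was called in any comparison.

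Of the genes with the highest level of their subunit class among the 28, Scn2b, Cacnb3 and Hcn2 had no value past a threshold of 0.05 in any comparison by edgeR. In WT-D, WT-S, 3xTg-D and 3xTg-S, in that order, Scn2b stood at 258 ± 47.8, 273 ± 44.6, 291 ± 11.4 and 309 ± 35.6 CPM (SD, n = 4). Its largest difference was that from WT-D to 3xTg-S, at 0.24 on the log2 scale (SE 0.13, adjusted p = 0.479 by edgeR), and the groups overlapped. In the same order, Cacnb3 stood at 122 ± 3.82, 132 ± 10.0, 133 ± 11.5 and 129.8 ± 11.3 CPM and Hcn2 at 64.1 ± 2.35, 67.4 ± 8.88, 69.1 ± 9.82 and 68.0 ± 9.72 CPM. The group means of Cacnb3 and of Hcn2 differed by less than the largest SD of the gene, though the SD of Cacnb3 in WT-D was only 3.82 CPM. From WT-D to 3xTg-D, Cacnb3 had a log2 difference of 0.13 (SE 0.07), with adjusted p = 0.464 by edgeR.

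Some markers of other cells were called between the same groups, beside 4.91% of all tested genes from WT-D to 3xTg-D. Of the 5 oligodendrocyte markers, 3 were called higher in 3xTg-D than in WT-D, where the list summed to 5298 to 6376 CPM and 4070.2 to 4826 CPM. Mog and Mag of that list overlapped between these groups. Mog had 42.2 to 53.7 CPM in 3xTg-D and 43.8 to 52.3 CPM in WT-D, and Mag 87.6 to 128 and 88.1 to 118 CPM. Of the 7 interneuron markers, 2 were called higher in 3xTg-D, with sums of 762 to 906 CPM against 735 to 852 CPM in WT-D. Of the 6 dentate granule markers, 1 was called lower in 3xTg-D, with sums of 536 to 591 CPM against 548 to 663 CPM in WT-D. Of 5 markers each, 1 of choroid plexus and 1 of striatum were called lower in 3xTg-D and 1 of thalamus and habenula higher, and the sums were 28.02 to 45.2, 13.96 to 21.4 and 44.6 to 52.2 CPM in 3xTg-D against 27.4 to 723, 19.2 to 23.9 and 42.2 to 46.3 CPM in WT-D. The 4 CA1 markers, of which none was called, summed to 225 to 257 CPM in 3xTg-D and 245 to 273 CPM in the WT-D mice. From 3xTg-D to 3xTg-S, 1 oligodendrocyte marker was called lower in 3xTg-S, and no other list had a call, beside 0.904% of all tested genes. The part these cells play in the channel gene values was not tested.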

How the data were processed

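The authors deposited raw read counts per gene for 16 hippocampi, made from single-end KAPA mRNA HyperPrep libraries with Trimmomatic 0.35 and STAR 2.5.1b on GRCm38 with Gencode annotation. The use of strand and of molecular identifiers in counting was not given in the sources used here. The 4 summary lines of the table were kept out of library sizes and gave the share of uniquely mapped reads outside genes. From the counts, edgeR 4.0.16 (R 4.3.3; TMM scaling, genes kept by filterByExpr over all mice with a minimum count of 10 and a minimum total of 15) was used to fit each pair of groups, and all 16 mice for the interaction. This left 16475 of 33942 genes with a count. Called means an unadjusted p of 0.01 or less, the threshold of the study, and Benjamini-Hochberg values over all tested genes stand beside it. Log2 values for the relation with the share used a prior count of 2. Exon lengths were unions of Gencode M21 exons on GRCm38. DESeq2 1.42.0, other scalings and filters, a replicate block, a covariate and each mouse left out were alternatives. The fits and the permutation test were tested on simulated data.

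Members, lists and tests were chosen with earlier results of these data known. Of the 36 genes that the rule takes, 3 are not reported here, and every count and ranking of channel genes leaves them out. The genes named by rule were the called ones, of which the 28 genes had none, and the highest per length in each subunit class, and others named were chosen after their values were seen. Replicate numbers were taken to pair the mice only where every same-numbered pair correlated above 0.1 in its deviations from the group means. Between WT-D and WT-S alone this held, with at least 0.11 in all 4 pairs, and the block changed no channel gene call there. The mean over same-numbered pairs was 0.22 there, 0.24 between WT-S and 3xTg-S and 0.21 between 3xTg-D and 3xTg-S. An effect of the number in these other comparisons was thus not excluded. The depth of 15413385 to 23590149 reads on genes leaves 46 to 209 reads behind each value of Scn7a.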

Additional observations from a re-analysis of the deposited data

Results flagged for a closer look

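In 24 sets of 4 mice (the 6 genes named by rule in each group), 2 had a mouse whose gap to its nearest neighbour took more of the group's range than Dixon's critical value allows, and chance alone flags about 1 in 20. In 3xTg-D mouse 2, Scn2a stood at 334.5 CPM, while the others had 425 to 440.3 CPM, and Cacna1e stood at 203 CPM, while the others had 346 to 360.1 CPM. The share of uniquely mapped reads outside genes was 8.79% in 3xTg-D mouse 2, the lowest of its group, and its part in these values was not tested.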

How the results depend on the processing

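Counts of called genes among the 28 channel genes changed as follows, and the causes were not tested. WT-D vs 3xTg-D went from 0 to 2 with DESeq2 under either set of size factors (5.32% of all tested genes with DEGES size factors). It went to 1 with no filter (3.7%), with at least 10 counts in every mouse (4.42%) or with all 16 mice in one fit (4.23%). 3xTg-D vs 3xTg-S went from 0 to 1 with no filter (1.14% of all tested genes) and to 2 with all 16 mice in one fit (1.51%). It went to 11 with the replicate block, under which the share of all tested genes called rose from 0.904 to 6.88%. In that block fit, adjusted p-values by edgeR were 0.027 for Cacna1c, 0.032 for Cacna1i, 0.040 for Cacna1b, 0.041 for Cacna1g and 0.048 for Cacna1d. The rest of the 11 had adjusted p-values from 0.055 to 0.130 by edgeR. WT-S vs 3xTg-S went from 0 to 5 with the block (4.26 to 8.13% of all tested genes) and to 1 with the covariate (5.98%). WT-D vs 3xTg-S went from 0 to 1 with the block (5.69 to 6.53%), and the interaction from 0 to 6 with it (0.595 to 3.79%). In the comparisons other than WT-D vs WT-S the numbers were not taken to pair the mice, since not every pair correlated above 0.1. Every mouse correlated best with its own number in none of the comparisons, the closest being 7 of 8. Leaving out both 3xTg-S mice of extreme share, an alternative added after the data were seen, gave 0 calls by edgeR, as did all mice together.

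Leaving out 1 mouse gave 0 to 1 calls for WT-D vs 3xTg-D and for WT-S vs 3xTg-S, 0 to 3 for 3xTg-D vs 3xTg-S, 0 to 8 for WT-D vs WT-S, 0 to 3 for WT-D vs 3xTg-S and 0 to 2 for the interaction.

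Over all 28 genes and the 6 contrasts, 27 of 168 log2 changes turned sign with the share as a covariate, such as Scn9a from 0.36 to -0.064 and Scn7a from 0.091 to -0.26 in 3xTg-D vs 3xTg-S, and 14 of 112 did so without both 3xTg-S mice. Each other setting on all mice turned 1 or 2. Among the 6 genes named by rule, these turned sign, none of them called. With DESeq2 and median-ratio size factors, Scn2b was -0.0027 in the interaction. With DESeq2 and DEGES size factors, Scn2b was -0.0036 in the interaction. With median-ratio size factors in edgeR, Scn2b was -0.0026 in the interaction. With the share as a covariate, Cacnb3 was 0.033 in 3xTg-D vs 3xTg-S, Hcn2 was 0.086 in 3xTg-D vs 3xTg-S, Cacnb3 was 0.014 in WT-S vs 3xTg-S, Cacna1e was -0.037 in WT-D vs 3xTg-S and Hcn2 was 0.036 in the interaction. Without both 3xTg-S mice, Hcn2 was -0.11 in WT-S vs 3xTg-S, Hcn2 was -0.036 in WT-D vs 3xTg-S and Scn2b was -0.072 in the interaction. With no filter, Scn2b was -0.025 in the interaction. With the replicate block, Hcn2 was -0.0019 in WT-S vs 3xTg-S and Scn2b was -0.0033 in the interaction. With at least 10 counts in every mouse, Hcn2 was -0.0045 in WT-S vs 3xTg-S and Scn2b was -0.0051 in the interaction. With all 16 mice in one fit, Cacna2d1 was 0.012 in WT-S vs 3xTg-S.

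With 1 mouse left out, these turned sign over the ranges given. In 3xTg-D vs 3xTg-S, Cacnb3 was -0.099 to 0.012 and Hcn2 was -0.12 to 0.071. In WT-D vs WT-S, Scn2a was -0.023 to 0.026, Scn2b was -0.037 to 0.19, Cacna2d1 was -0.057 to 0.0043 and Hcn2 was -0.014 to 0.13. In WT-S vs 3xTg-S, Cacna2d1 was -0.025 to 0.012, Cacnb3 was -0.10 to 0.0053 and Hcn2 was -0.11 to 0.083. In WT-D vs 3xTg-S, Cacna1e was -0.12 to 0.22 and Hcn2 was -0.028 to 0.13. In the interaction, Scn2b was -0.11 to 0.12.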
